A study of Mus musculus with 2 samples.

Results

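The cytosolic ribosomal protein genes were examined for CTCF binding at their promoters in newborn mouse forebrain. They were taken from the GENCODE M21 annotation as protein-coding genes named Rpl or Rps with a number and an optional letter, plus Rplp0, Rplp1, Rplp2 and Rpsa, without the kinase genes Rps6k, predicted Gm genes and pseudogenes. This gave 80 of 21938 coding genes, 31 for the small subunit and 49 for the large subunit. CTCF ChIP-seq, which recovers DNA bound by the zinc-finger protein CTCF, had been run on forebrain of strain B6NCrl mice at postnatal day 0, with tissue pooled from several dissections. The design had 1 group and no second condition, and sex was not collected. Its 2 libraries carry the labels biological replicate 1 and 2 but cite a single biosample and donor, so differences between them may be technical only. The control experiment named in the labels was not used here. Peak lists of CTCF carry no expression markers, so the forebrain label could not be checked against marker genes. In this bulk tissue, binding in fewer cells and weaker binding per cell cannot be told apart.

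Each ribosome joins a small subunit, which reads the messenger RNA, to a large subunit, which forms peptide bonds. The proteins of both subunits are needed together, their genes are transcribed in nearly every cell, and in the developing brain dividing progenitors and growing neurons both depend on them. CTCF binds a long motif through its zinc fingers, occupies many promoters as well as insulators, and with cohesin anchors chromatin loops.

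A gene was counted as having a site when the summit of a peak in the optimal list lay within 1 kb of any of its transcription start sites (TSSs). The optimal list holds the peaks that passed an irreproducible discovery rate threshold, and its strongest summit stood for the gene. Not every peak in it was called in both replicates: 56235 overlapped a called peak in each. The peak strength is the signal value written by the authors' peak caller, on a scale that was not stated, so it ranks peaks within a list and is no count of reads. The list held 56462 placed peaks with a median signal value of 64.3, and the read depth is not given in the sources used here. Shares carry Wilson 95% intervals, which cover counting error over genes only, and no test was run across genes.

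The sequences under the sites come first. The core CTCF motif, 14 letters long, was sought on either strand, allowing up to 2 mismatches, with its centre within 50 bp of the summit. A full match with no mismatch was found at 1 member, Rplp0 (2.08% of member sites against 2.65% of coding sites). A match with 1 mismatch was found at 7 further members (14.6% against 11.8%). The sequences are shown for Rplp0 and 6 of those 7, because they are the closest matches of the group. Each run is on the strand of the motif in mm10, with the motif in capitals and 8 bases on each side.
Rplp0, chr5:115559282-115559311 (+): gctccgacCCAGCAGAGGGCAGcaggtctg
Rpl36, chr17:56613320-56613349 (+): acctccggCCACCAGAGGTCGCccgcagcg
Rpl38, chr11:114668450-114668479 (+): aatctgaaCCAGAAGAGGGCAGggctgctg
Rps29, chr12:69159734-69159763 (-): atttcacgCCAGTAGGTGTCAGtagtgagt
Rps4x, chrX:102189426-102189455 (-): acctcccaCCAGCAGATGGCAAgagagagt
Rps19, chr7:24883977-24884006 (+): agactccgGCACTAGATGGCGGagctgaac
Rpl22, chr4:152326279-152326308 (-): aaacccggCCACCAGGTGGAGGgccatttc
Such a match describes the letters and does not show which bases the protein touched.

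Strong sites also stood on sequence without a match. The sites of Rpl10a and Rpl13a are shown as the strongest of these, with their closest stretch, at 3 mismatches, in capitals.
Rpl10a, chr17:28328456-28328485 (+): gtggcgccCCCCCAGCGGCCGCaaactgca
Rpl13a, chr7:45129081-45129110 (+): tgtggtgtCCATGAGGGGGCGAgcatagtc
Among the 48 members with a site, the closest stretch had 2 mismatches at 10, 3 at 14, 4 at 12 and 5 at 4.

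The position of the motif in the promoter is shown for 4 of the 10 strongest members. They were chosen from those whose 200 bases before the TSS hold no exon of the GENCODE M21 basic set. The annotated span of Rpl11 extends upstream of the TSS used here. Each run is on the strand of the gene and ends at the base before the TSS, with the motif in capitals.
Rplp0, chr5:115559267-115559466 (+): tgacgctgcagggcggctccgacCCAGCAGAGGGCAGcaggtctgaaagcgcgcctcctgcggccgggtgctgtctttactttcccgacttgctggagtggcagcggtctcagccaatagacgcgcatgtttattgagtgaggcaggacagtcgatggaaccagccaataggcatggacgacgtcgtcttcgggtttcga
Rpl5, chr5:107900302-107900501 (+): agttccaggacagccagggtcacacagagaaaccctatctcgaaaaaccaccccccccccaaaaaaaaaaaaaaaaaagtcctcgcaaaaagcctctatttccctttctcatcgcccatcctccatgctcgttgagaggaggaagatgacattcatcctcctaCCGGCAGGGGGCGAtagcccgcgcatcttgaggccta
Rpl26, chr11:68901383-68901582 (+): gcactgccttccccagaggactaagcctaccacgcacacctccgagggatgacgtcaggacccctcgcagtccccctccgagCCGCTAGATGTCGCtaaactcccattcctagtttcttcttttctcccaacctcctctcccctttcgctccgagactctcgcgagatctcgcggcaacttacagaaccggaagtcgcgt
Rpl11, chr4:136053394-136053593 (-): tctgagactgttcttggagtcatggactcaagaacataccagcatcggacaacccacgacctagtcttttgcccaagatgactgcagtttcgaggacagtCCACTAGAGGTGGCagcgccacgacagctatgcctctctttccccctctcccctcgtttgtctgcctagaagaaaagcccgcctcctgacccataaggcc
In Rpl5 the motif lies close to the end of the run, next to the TSS, and in Rplp0 it lies near the start of the run. All 4 have the motif on the strand of the gene, but they were chosen after the values were seen. Rpl27, also among the 10 strongest, has it on the other strand, and over all members with the motif the count was 13 of 18.

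CTCF sites stood at 48 of the 80 members, or 60.0% (49.0 to 70.0), against 36.8% of all coding genes. The large subunit had sites at 32 of 49 genes, 65.3% (51.3 to 77.1), and the small subunit at 16 of 31, 51.6% (34.8 to 68.0). The difference of −13.7 percentage points for small against large had an interval of −34.2 to 7.88 (Newcombe). It turned to 5.33 in the conservative list and to 4.81 or 6.19 with either replicate's list alone, so no direction held between subunits.

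Over all coding genes, the share with a site moved with promoter base composition. Composition was read within 500 bp of a single TSS per gene, the most common start of its transcripts. The ratio of observed to expected CpG there had a median of 0.80 for members and 0.57 for all coding genes. It reached 0.6 at 73 of 80 members (91.2%) against 47.2% of coding genes. Members with and without a site had like medians, 0.79 and 0.81 for this ratio and 56.6% and 57.2% for GC content. Within genes of a ratio of at least 0.6, a background chosen after seeing the data, members had a site at 44 of 73, 60.3% (48.8 to 70.7), and all coding genes at 57.2%. The share at CpG-rich members was therefore near that of all CpG-rich coding genes. The part of base composition in the difference from all coding genes was not tested further. Of the 7 members under that ratio 4 had a site (57.1%), Rps14, Rps4x, Rps10 and Rpl18, against 18.7% of coding genes under it. Rpl17, Rpl39l and Rpl3l had none. A site could stand at any TSS of the gene. Those of Rps14, Rps10 and Rpl18 lay in an intron, so their ratio may have been read at another start.

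All coding genes were also split into quintiles by GC content. These quintiles were not matched for CpG ratio, and most second-quintile members had a ratio of at least 0.6. The lowest quintile held only Rpl17, which had no site, and 6.19% of coding genes there had one. In the second quintile 11 of 16 members, 68.8% (44.4 to 85.8), had a site against 23.7%. Rps14 and Rps10 were among these 11, and their GC content was read at the same single TSS. The third quintile had 17 of 28 (60.7%) against 41.0%, and the fourth 18 of 30 (60.0%) against 53.0%. The highest quintile had 2 of 5, Rpl10a and Rpl15, against 60.7%. The members thus stayed near the same share in the 3 middle quintiles while the share of all coding genes rose with GC content.

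**Figure D1:**
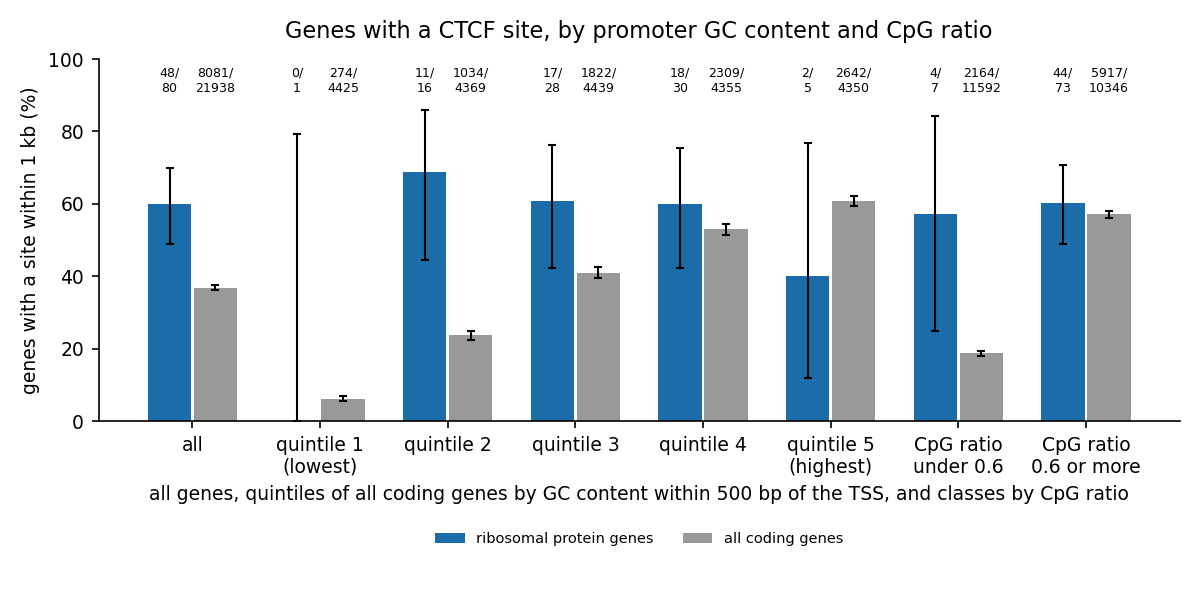
Percent of genes with a CTCF summit within 1 kb of a TSS (vertical axis) for the 80 members and all 21938 coding genes, in all, by quintile of promoter GC content and by CpG ratio under or from 0.6. Bars are shares, lines are Wilson 95% intervals and the fractions give genes with a site over genes. The bars differ most in the second quintile (68.8% against 23.7%) and lie close together at CpG-rich promoters (60.3% against 57.2%). The quintiles are not matched for CpG ratio.

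Strong sites were counted apart, since sites span a wide range of signal value. A site at or above the median signal value of the list stood at 27 of 80 members, 33.8% (24.3 to 44.6), against 16.9% of coding genes. Among CpG-rich genes the counts were 25 of 73 members, 34.2% (24.4 to 45.7), and 25.5% of coding genes, which lies inside the members' interval. The median signal value of the 48 sites was 83.5 (95% interval 51.2 to 144), with a range of 17.5 to 414, against 56.7 at the 8081 coding genes with a site and 55.4 at those that are CpG-rich. Of all coding sites divided into quintiles by signal value, the strongest quintile held 15 of the 48 (31.2%), and the next ones 11, 9, 5 and 8. With replicate 1 alone the median was 30.9 for members and 30.4 for coding genes, and with replicate 2 alone 43.1 and 26, each on its own scale and over the 57 and 46 members with a site in that list. The members were thus above coding genes in the list of replicate 2 and near them in that of replicate 1.

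**Figure D2:**
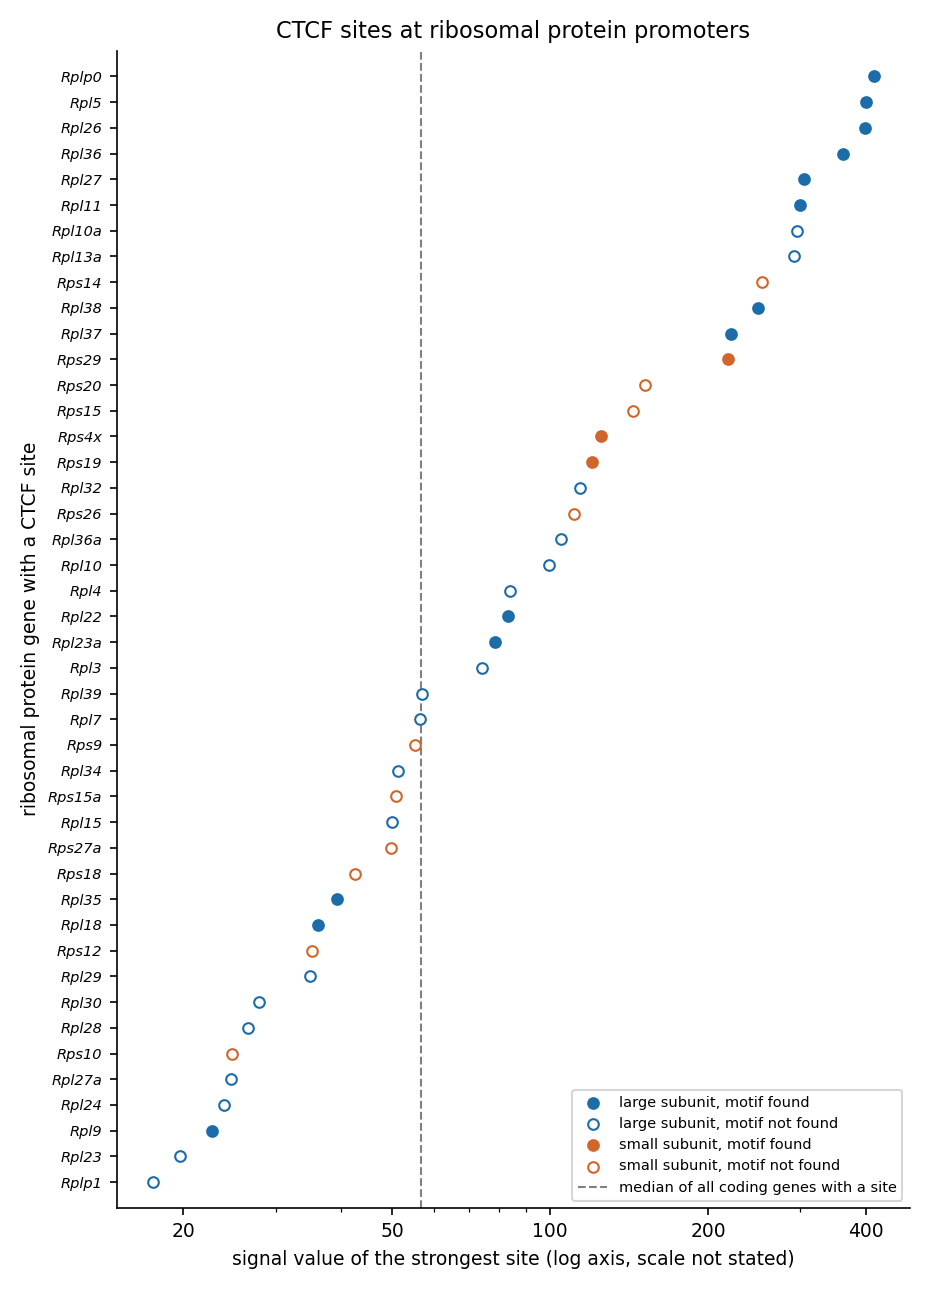
Signal value in the optimal list (horizontal log axis) of the strongest site of 44 of the 48 members, 1 point per gene, with subunit marked by colour and the motif by filled points. The dashed line is the median of all coding genes with a site, 56.7. The values run from 17.5 at Rplp1 to 414 at Rplp0, and the 6 highest points all carry the motif.

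The stalk of the large subunit recruits translation factors through Rplp0, which anchors the pairs of Rplp1 and Rplp2. Rplp0 had the strongest site of all members, at chr5:115559174-115559503 in mm10, 150 bp upstream of the TSS. The optimal list gave it a signal value of 414, and the lists of replicates 1 and 2 gave 219 and 197. Its partner Rplp1 had the weakest site, with 11.8 in replicate 1, 5.72 in replicate 2 and 17.5 in the optimal list. Rplp2 had no optimal-list site, although its best called peak reached 21.1 and 26.3 in the replicates and 37.7 in the conservative list. In the optimal list the 3 genes of a single structure thus ran from the top of the group to no site. The called peaks of Rplp2 were nevertheless above those of Rplp1 in both replicates.

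Rpl5 and Rpl11 form a complex with the smallest ribosomal RNA and, when free, bind the p53 regulator Mdm2. Both had strong sites close to the TSS. Rpl5 had 222 and 185 in replicates 1 and 2 and 400 in the optimal list, at chr5:107900359-107900612, 17 bp upstream. Rpl11 had 156 and 141, and 299 in the optimal list, at chr4:136053356-136053612, 88 bp upstream. Rpl23, which also binds Mdm2, had one of the weakest sites, 19.7 at 211 bp downstream, with 17.8 in replicate 1 and no called peak in replicate 2.

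Proteins around the peptide exit tunnel were spread over the whole range. Rpl26 had 223 and 178 in the replicates and 399 in the optimal list, at chr11:68901331-68901602, 117 bp upstream. Rpl4, which lines the tunnel, had 84.0 at 214 bp downstream, and Rpl23a and Rpl35, at the tunnel exit, had 78.5 and 39.2. Rpl39, another tunnel protein, had 56.9, while Rpl17, Rpl19 and Rpl31, also near the exit, had none. The peptidyl transferase centre is approached by Rpl3, with 74.1 at 54 bp downstream, and by Rpl8, with no optimal-list site. Rpl10, which joins the large subunit late and is encoded on chromosome X, had 99.7 at 18 bp upstream.

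Other strong sites of the large subunit lay upstream of the TSS as well. Rpl36 had 197 and 163 in the replicates and 361 in the optimal list, at chr17:56613205-56613480, 81 bp upstream. Rpl27 had 159 and 144, and 305 in the optimal list, at chr11:101442010-101442272, 156 bp upstream. Both carried the motif.

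Rpl10a and Rpl13a, the latter known for a role in silencing inflammatory messages outside the ribosome, had strong sites without a motif match. Rpl10a had 163 and 132 in the replicates and 295 in the optimal list, with the summit 3 bp from the TSS at chr17:28328342-28328597. Rpl13a had 161 and 133, and 292 in the optimal list, at chr7:45128963-45129229, 322 bp upstream. Rpl38, needed for translation of Hox messages in skeletal patterning, had 153 and 92.2 in the replicates and 249 in the optimal list, and 2 more summits, 143 at 517 bp and 5.66 at 717 bp downstream.

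In the small subunit, strong sites also lay upstream of the TSS. Rps14, known for its loss in a myelodysplastic syndrome, had 137 and 118, and 254 in the optimal list, on chromosome 18 and 252 bp upstream. Rps29 had 118 and 103, and 218 in the optimal list, 573 bp upstream.

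Other small subunit genes ranged from sites above the list median to none. Rps19, the gene most often mutated in Diamond-Blackfan anaemia, an inherited failure of red cell production, had 120 at 388 bp upstream and Rps26 had 111 at 153 bp upstream. Rps10 had 24.8 at 91 bp downstream. Rps7 and Rps24 had no site. Rps6, the target of the ribosomal S6 kinases, Rps3, at the messenger entry channel, and Rpsa, also known as the laminin receptor, had none.

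Further small subunit sites were Rps20 at 152, Rps15 at 144, Rps4x on chromosome X at 125, Rps9 at 55.3, Rps15a at 50.8, Rps27a at 49.7, Rps18 at 42.5 and Rps12 at 35.2. Rps27a encodes a fusion of ubiquitin with its ribosomal protein, and Rps9 contributes to decoding accuracy. Further large subunit sites were Rpl37 at 221, Rpl32 at 114, Rpl36a at 105, Rpl22 at 83.1, Rpl7 at 56.5, Rpl34 at 51.2, Rpl15 at 49.9, Rpl18 at 36.1, Rpl29 at 34.9, Rpl30 at 27.8, Rpl28 at 26.5, Rpl27a at 24.6, Rpl24 at 23.9 and Rpl9 at 22.7. Of these 22, the values cover both sides of the list median, and the 6 above 100 all lay upstream of the TSS.

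The summits of members lay mostly upstream of the TSS. The median distance was 148 bp (81.0 to 214) against 210 bp for all coding genes with a site. Within 250 bp lay 33 of 48 members, 68.8% (54.7 to 80.1), against 55.2%. Both values of coding genes lie inside the members' intervals. The 100 bp just upstream held 16 summits (33.3%) against 18.5%, and the next 100 bp held 9 (18.8%) against 11.5%. Downstream summits made up 12 of 48, 25% (14.9 to 38.8), against 43.4% of coding genes with a site. Among CpG-rich genes the values were 11 of 44 (25%) and 42.7%.

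Counting only the strongest summit of each member, the highest downstream value was 84.0, at Rpl4. Rpl38 had a further summit of 143 at 517 bp downstream. Of the 27 member sites at or above the list median 4 lay downstream, 14.8% (5.92 to 32.5), Rpl4, Rpl22, Rpl23a and Rpl3, against 35.7%. By annotation, 29 sites lay outside the gene, 11 in an intron, 7 in an untranslated exon and 1, that of Rpl24, in a coding exon. The same split over all coding sites is not given here.

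**Figure D3:**
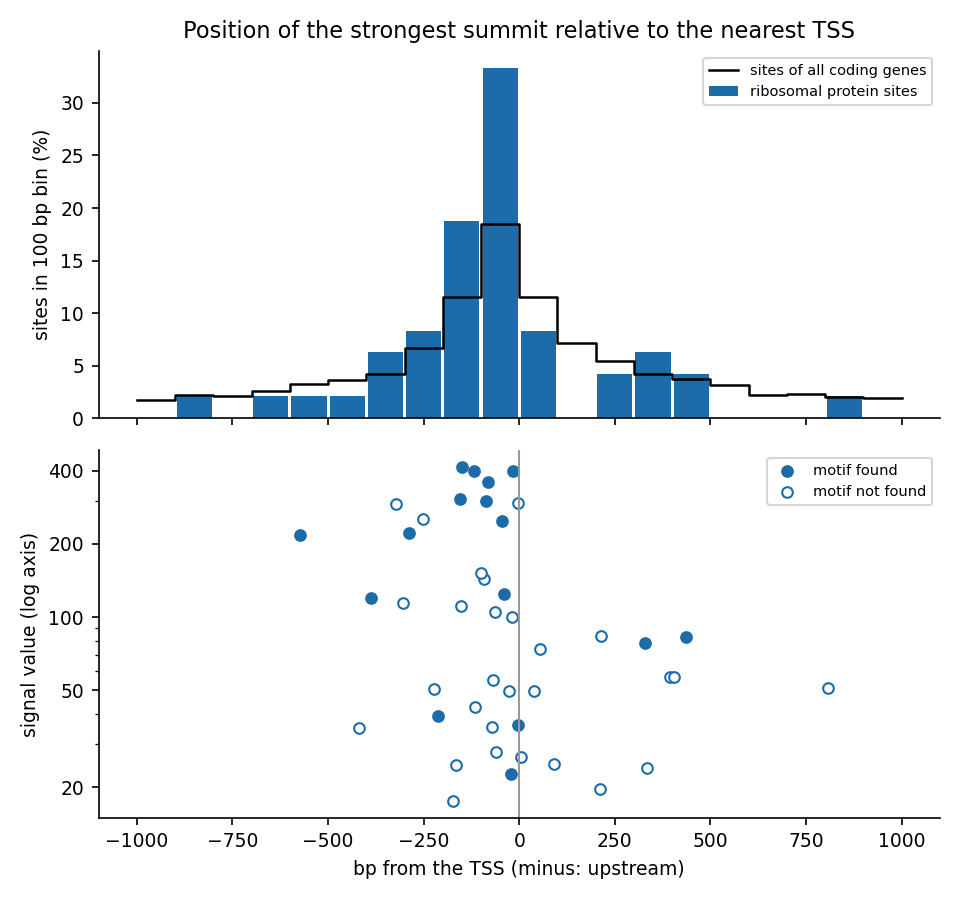
Upper panel, percent of sites per 100 bp bin by distance of the summit from the nearest TSS in bp, negative upstream, for the 48 members and 8081 coding genes. Lower panel, signal value (log axis) of 44 member sites against the same distance. The bin just upstream holds 33.3% of member sites against 18.5%, and every plotted site above 84.0 lies to the left of 0. Further summits of the same gene are not shown.

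The motif stood at 18 of the 48 member sites, 37.5% (25.2 to 51.6), against 39.0% of coding sites, a share near the background. It was found 1000 bp to the left of 1 site and to the right of 0. Large subunit sites had it at 14 of 32 and small subunit sites at 4 of 16, among them Rps29, Rps4x and Rps19. Member sites with the motif had a median signal value of 235 (83.1 to 353) against 110 at coding sites with it, and those without it 54.5 (42.5 to 99.7) against 42.9. The motif lay on the strand of the gene at 13 of 18, 72.2% (49.1 to 87.5), against 56.2%. The 5 on the other strand included Rpl27, Rpl37, Rpl22 and Rpl9.

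Each replicate's signal value was taken from its strongest peak over the site, and the log2 ratio of replicate 1 to replicate 2 was centred on the median of all optimal-list peaks. Over the 47 members called in both, the centred ratio had a median of 0.07 (−0.01 to 0.21) and a SD of 0.47, against a SD of 0.55 at coding sites. At Rplp0, Rpl5 and Rpl26 it was −0.05, 0.06 and 0.13. Rpl38, with 153 and 92.2, had a ratio of 0.53, above the members' SD of 0.47 but within the 0.55 of coding sites. The ratio was largest at Rpl29, 1.65, with 29.0 and 8.06, then at Rpl27a, 0.91, and Rplp1, 0.84. Among the low ratios were −0.87 at Rps10, with 9.21 and 14.6, and −0.86 at Rpl23a, with 30.9 and 48.6.

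**Figure D4:**
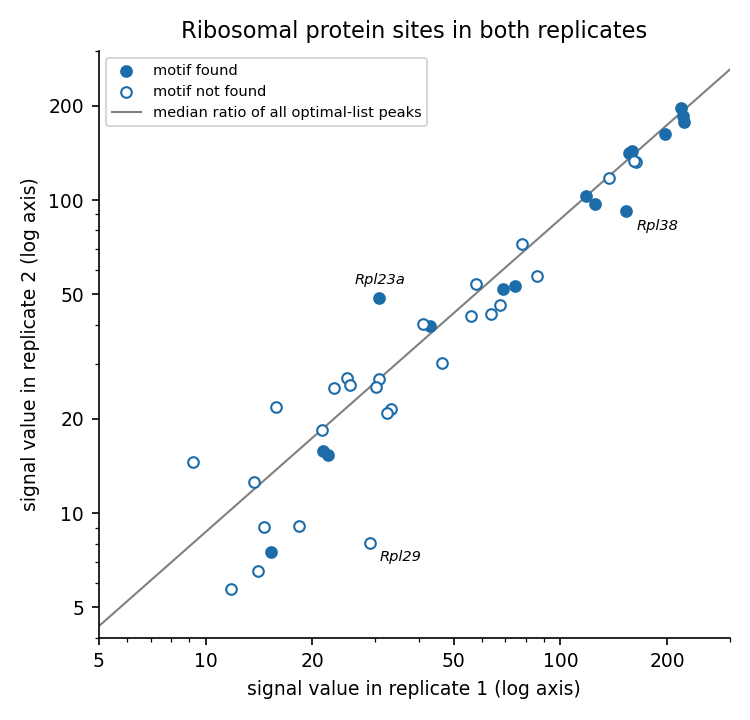
Signal value of 43 of the 47 member sites called in both replicates, in replicate 1 (horizontal log axis) and replicate 2 (vertical log axis), filled where the motif was found. The line is the median ratio of all optimal-list peaks, and Rpl29 (29.0 and 8.06) and Rpl23a (30.9 and 48.6) lie far from it on either side.

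The conservative list, a second list filtered for reproducibility, also held the site at 41 of 48 members. The 7 without it there were Rpl29, Rpl28, Rps10, Rpl27a, Rpl9, Rpl23 and Rplp1, all with a signal value of at most 34.9. Several summits in the window were found at 5 members. Besides Rpl38 these included Rpl22, with 83.1 at 437 bp downstream and 61.1 at 6 bp upstream, Rpl35, with 39.2 and 16.4, and Rpl36a, with 105 and 21.3. The shares of all coding sites in the conservative list or with several summits are not given here, so these counts describe the members only.

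The 32 members without an optimal-list site included, in the large subunit, Rpl3l, Rpl6, Rpl7a, Rpl8, Rpl10l, Rpl12, Rpl13, Rpl14, Rpl17, Rpl19, Rpl21, Rpl31, Rpl35a, Rpl37a, Rpl39l, Rpl41 and Rplp2. In the small subunit they included Rps2, Rps3, Rps6, Rps7, Rps13, Rps16, Rps21, Rps23, Rps24, Rps25, Rps27, Rps27l, Rps28 and Rpsa. All 4 paralogs whose names end in l lacked a site, among them Rpl10l and Rpl39l, which are known from the male germ line, and Rpl3l, known from striated muscle.

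Most of these promoters still had called peaks that are not in the optimal list. In both replicate lists 30 of 32 had a called peak within 1 kb, against 40.2% of coding genes without a site, and 20 of 32 had one with a q-value of at most 0.05 in both, against 23.0%. Among CpG-rich genes the counts were 28 of 29 against 81.8% and 19 of 29 against 52.5%. Only Rpl10l and Rpl39l had no peak in either list. Among the larger values in replicates 1 and 2 were 18.8 and 11.4 at Rps2, 17.6 and 5.02 at Rpl13, 15.0 and 15.2 at Rps27l and 14.5 and 16.0 at Rpl41. The conservative list held a summit at 8 of the 32, Rplp2 (37.7), Rps2 (31.8), Rpl41 (30.7), Rps6 (24.5), Rps27 (23.4), Rpl8 (21.3), Rpsa (19.7) and Rps25 (16.5). These 8 passed the filter of 1 list and are absent from the other. A gene without a site is therefore one absent from the optimal list, not one shown to be free of CTCF.

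The limit of 1 kb decided few members. Close inside it was Rpl34 at 808 bp (signal value 51.2). Nearest outside were Rpl7a at 1200 bp (62.0), Rpl14 at 1277 bp (118) and Rpl41 at 1368 bp (156). Members without a site had their nearest summit at a median of 5896 bp, against 14377 bp for coding genes without one. Over all 80 members the median number of summits within 50 kb of the TSS was 7, against 4 for coding genes.

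Many ribosomal protein genes carry small nucleolar RNAs, which guide modification of ribosomal RNA, in their introns. Hosts numbered 29 of 80 (36.2%) against 1.27% of coding genes. A site stood at 16 of 29 hosts, 55.2% (37.5 to 71.6), against 49.1% of all coding hosts. Of the other 51 members 32 had one, 62.7% (49.0 to 74.7), against 36.7% of coding genes that are no hosts. Members and coding genes were not matched for CpG ratio here. The intervals of hosts and other members overlap. Rpl4, with 5 such RNAs, had a site, and Rpl7a, with 3, had none.

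A divergent gene started within 1 kb upstream of 13 of 80 members (16.2%) against 11.8% of coding genes. A site stood at 6 of these 13, 46.2% (23.2 to 70.9), against 55.7% of all coding genes with such a neighbour. Of the other 67 members 42 had one, 62.7% (50.7 to 73.3), against 34.3% of coding genes without such a neighbour. These groups were not matched for CpG ratio, and the 57.2% of CpG-rich coding genes with a site lies inside that interval. The 6 were Rpl15 with Nkiras1, Rpl18 with Sphk2, Rpl34 with Gm42997, Rpl4 with Zwilch, Rpl9 with Lias and Rps18 with Vps52. The site of Rps18 lay 20 bp from the start of Vps52, nearer than to Rps18 itself, and those of Rps10 and Rpl24 were also nearer to another annotated gene. In all, 10 of the 48 sites lay within 1 kb of another gene's TSS and cannot be given to the member alone. The share of such sites over all coding genes is not given here.

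Promoter letters other than the CTCF motif were counted from 250 bp before to 50 bp after the start, on both strands, in the members and in all coding genes. The YY1-type ATGGCG was found at 22 members (27.5%) against 10.6%, the ETS-type CCGGAAG at 24 (30.0%) against 11.1%, and the ZNF143-type ACTACAA at 11 (13.8%) against 3.74%. The GC box GGGCGG at 39 (48.8%) against 44.8% and TATAAA at 8 (10%) against 12.5% were near the share of all promoters. A single promoter can hold several of these, and a match is only a match of letters. ATGGCG and CCGGAAG contain a CG, and their shares within CpG-rich genes alone were not counted.

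The textbook mark of messengers whose translation follows growth signals is a C at the start followed by pyrimidines. A C followed by 4 pyrimidines stood at the annotated start of 8 members (10%) against 2.34% of coding genes. A looser form, a run of 6 pyrimidines within 10 bp of the annotated start, was found at 30 members (37.5%) against 20.6%. The looser form was as frequent in members with a site, 18 of 48, as in those without, 12 of 32. ATGGCG was found in 14 of 48 and 8 of 32, CCGGAAG in 12 of 48 and 12 of 32, and ACTACAA in 6 of 48 and 5 of 32.

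Genes of the wider pathway were taken from lists by name. Mitochondrial ribosomal proteins, which translate the messages of mitochondrial DNA, had a site at 39 of 78, 50% (39.2 to 60.8), with a median signal value of 50.9 and the highest at Mrps33 (416), Mrpl34 (396) and Mrps16 (363). Initiation and elongation factors had one at 38 of 68, 55.9% (44.1 to 67.1), median 54.9, led by Eif3g (344), Eif3f (289) and Eif2s1 (276). RNA polymerase I and its factors, which make the ribosomal RNA precursor, had one at 13 of 20, 65.0% (43.3 to 81.9), median 46.3, led by Taf1c (263), Twistnb (213) and Polr1d (202). Ribosome assembly factors had one at 30 of 50, 60.0% (46.2 to 72.4), median 66, led by Rrp1 (568), Rrp9 (430) and Nob1 (401). Each list lay above the 36.8% of all coding genes. The lists were not matched for CpG ratio, and 57.2% of CpG-rich coding genes had a site. The intervals of all 4 lists overlap that of the members, and the members' median of 83.5 was above all 4.

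Of 7 ribosomal protein or paralog genes under other symbols, 2 had a site. Rps3a1, a small subunit gene whose symbol ends in a number after its letter, had 367 at −35 bp with the motif, which would rank it among the strongest members. Rpl7l1 had 92.5 at −523 bp. Those without one included Fau, which encodes a fusion with a ubiquitin-like protein, Rack1, a scaffold on the small subunit, Rpl22l1 and Rpl36al.

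**Figure D5:**
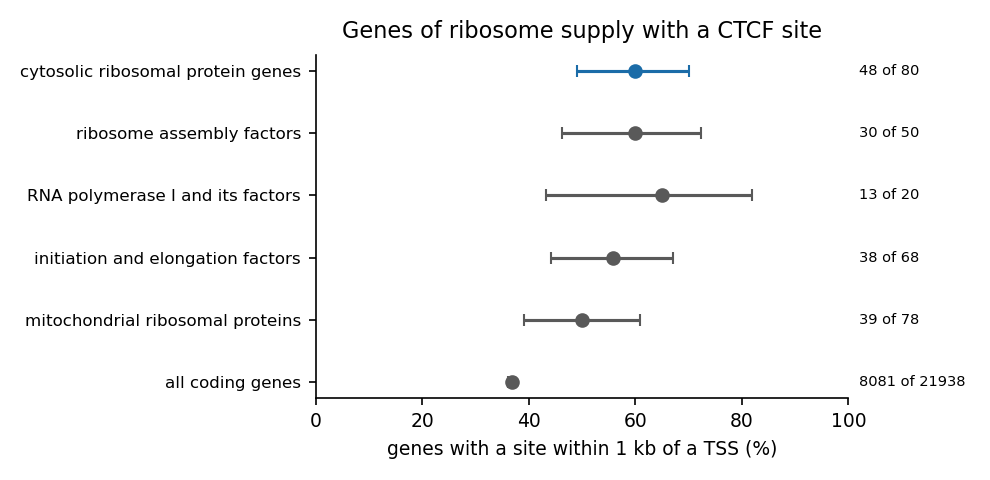
Percent of genes with a CTCF site within 1 kb (with Wilson 95% intervals) for the cytosolic ribosomal protein genes, the pathway lists and all coding genes. The members (60.0%) lie within the range of the lists of 50% to 65.0% that hold 20 or more genes. All coding genes lie at 36.8%, and the lists are not matched for CpG ratio.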

How the data were processed

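CTCF ChIP-seq peaks of 2 replicates of 1 group were used. Per the labels, they are on mm10. The deposited lists were called on each replicate and on both together, and filtered by irreproducible discovery rate into an optimal and a conservative list, per the deposited notes. Which aligner and peak caller were used is not given in the sources used here. The authors' lists give per peak a signal value (a score of unstated scale), −log10 of a q-value and a summit offset in bp. Each replicate list held 300000 peaks.

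Summits were matched to GENCODE M21 basic TSSs within 1 kb, and sequence was read from GRCm38. Each gene's strongest summit was its site. A single replicate was used through as many of its strongest peaks as the optimal list holds. Intervals are Wilson or, for medians, binomial order statistics at 95%. The motif search was tested on simulated data. The scripts ran on pysam 0.24.0, scipy 1.17.1, pandas 2.3.3, numpy 2.4.6 and matplotlib 3.10.9 under Python 3.11.15. The rule named every member, the 10 strongest with positions, and printed sequences of matches with 0 or 1 mismatches and of the 3 strongest sites without a match. Some items it selects are not reported here, singly or in the plots of single genes, but are counted in the totals. The 4 promoters were chosen after their values were seen. Members nearest the limit, the 3 largest replicate differences each way and the top 3 genes of each pathway list follow the same rule. Rps14 is given without sequence. The members and lists were chosen with earlier results of these data known.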

Additional observations from a re-analysis of the deposited data

How the results depend on the processing

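Requiring a signal value at or above the list median left 27 of the 48 genes with a site. The conservative list gave 49 genes, 41 of them among the 48, and either replicate alone 46 to 57. Other windows, TSS sets and gene lists gave 44 to 63. The small minus large subunit difference of −13.7 percentage points reversed to 5.33 in the conservative list and to 4.81 to 6.19 with 1 replicate left out, and the cause was not tested. The median signal value of 83.5 became 30.9 to 43.1 with 1 replicate left out, where both the scale of the list and the members with a site differ, and the cause was not tested. The share of sites with the motif, 37.5%, became 16.7% with at most 1 mismatch and 66.7% with at most 3. The median distance of 148 bp ranged from 115 to 156. The median replicate ratio of 0.07 became 0.27 without centring. No paired analysis was possible because there was only 1 group.

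The unstated scale limits signal values to ranks within a list, depth is unknown, and a gene without an optimal-list site is not shown to be unbound. The labelled biological replicates cite 1 biosample, so their spread may not show variation between animals. Of the 48 sites, 10 lie within 1 kb of another gene's TSS.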
